A study of Mus musculus with 11 samples.

Results

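The genes described here were the E2F, Rb, Foxm1 and Myb factors of the cell cycle, 10 genes taken by symbol from a table of 20893 genes measured by bulk RNA-seq in whole mouse livers. They were E2f1, E2f2, E2f3, E2f7, E2f8, Rb1, Rbl1, Foxm1, Mybl2 and Cdkn2c, and all 10 were in the table. The induced mice were on a C57BL/6 background and combined a doxycycline-responsive YAP S127A transgene (tet-YAP) with Alb-CRE and the ROSA26-rtTA-IRES-EGFP allele, so that doxycycline switches on an active form of the Hippo pathway effector YAP in cells in which the albumin promoter has driven Cre. There were 4 livers after 3 days of doxycycline food and 3 livers after 7 days. The 4 control livers were labelled WT with the same ROSA26-rtTA-IRES-EGFP allele and 7 days of doxycycline, and whether they carried Alb-CRE is not given in the labels used here. The livers were taken whole, so every cell type of the organ contributed RNA, and in such samples more cells of a type and more RNA per cell cannot be told apart.

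E2F proteins bind the promoters of genes for DNA replication. E2F proteins are held back by the pocket proteins, of which Rb and p107 (the product of Rbl1) are examples. Cyclin-dependent kinases release them by phosphorylating the pocket protein. E2f1, E2f2 and E2f3 are mainly activators, whereas the atypical factors E2f7 and E2f8 repress the same genes later in the cycle and are strongly expressed in livers whose hepatocytes become polyploid. B-Myb, encoded by Mybl2, binds the MuvB complex in S phase, and Foxm1 joins it to switch on the genes of mitosis. Cdkn2c encodes p18, an INK4 inhibitor of the kinases that act on Rb.

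Several of these genes are themselves known targets of E2F factors, so their promoters were read from the RefSeq windows of GRCm38.p6, of which the 250 bases before each start were searched. Windows were found for 8 of the 10 genes (not for Rb1 and Foxm1). Both strands were searched for 8 E2F words, namely TTTGGCGC, TTTCGCGC, TTTCCCGC, TTTGGCGG, TTTCCCGG, TTTGCCGC, GGCGGGAA and GCGGGAA, of which the last is contained in the one before it and overlaps TTTCCCGC on the other strand. At least 1 of these words stood in 1 window of each of 4 genes (E2f3, E2f7, Rbl1 and Cdkn2c), and 5.99% of all 32851 windows held one. E2f2, E2f3 and Cdkn2c had 2 windows each, so the count of genes is not directly comparable with that share of windows. Stretches of 60 bases with their words are shown for a called pocket protein gene, an activator and a repressor, so that the letters can be set beside the values that follow. Capitals mark the matched words, and each line is written 5′ to 3′ on the strand of the gene.
Rbl1 (chr2:157204535-157204594, minus strand): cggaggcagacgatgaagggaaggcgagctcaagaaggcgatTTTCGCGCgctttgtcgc
E2f3 (chr13:29986064-29986123, minus strand): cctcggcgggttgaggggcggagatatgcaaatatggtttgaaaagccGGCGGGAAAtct
E2f7 (chr10:110745202-110745261, plus strand): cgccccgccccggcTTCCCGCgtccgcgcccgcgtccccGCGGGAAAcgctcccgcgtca
In Rbl1 the word lay 18 to 11 bases before the start. The E2f7 stretch held 2 separate sites. A match of letters is a description of the window and not a binding site. The RefSeq starts of E2f1 and of the Cdkn2c window with a word lay 466 and 433 bases inside the genes as GENCODE M1 places them on mm9, and these windows are not shown. For the windows shown, the RefSeq start lay at 0 bases from that gene start in Rbl1 and E2f7. In E2f3 it lay at -395 bases, which is upstream of the gene as M1 places it.

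Values were deposited as eRPKM, exonic reads per kilobase of a gene and relative to library size, so levels of different genes can be set side by side. The reads behind each value were recovered, and libraries held 1251396 to 5495697 reads on genes among controls, 2660233 to 3681416 after 3 days and 5312486 to 5941357 after 7 days, so that depth moved with the groups. Some features of the libraries bear on every comparison. The first is that 3 libraries (control livers 1 and 2 and the 7-day liver 2) had 17392 to 19280 genes above 0, against 14630 to 15809 in the other 8. The second is that Xist exceeded the Y-linked Ddx3y in 2 of 4 controls, 2 of 4 livers at 3 days and 3 of 3 at 7 days, so that sex was not balanced. The third is that the summed level of the 4 macrophage markers in the table was 142 to 293 eRPKM among controls, 162 to 313 after 3 days and 508 to 579 after 7 days, while the hepatocyte markers summed to 1032 to 2919, 1264 to 1566 and 853 to 956. At 7 days 3 of the 4 macrophage markers were called higher and 1 of 5 hepatocyte markers lower. The part of these differences in the results was not tested.

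Yap1 reads did not separate the groups, with means of 18.2 ± 3.1 eRPKM (SD, n = 4) in controls, 16.8 ± 1.83 (n = 4) at 3 days and 18.4 ± 0.862 (n = 3) at 7 days. Cyr61 and Ctgf, the customary readouts of YAP with Tead factors, had log2 fold changes of 3.27 and 3.49 at 7 days (limma adjusted p = 8.01e-06 and 1.25e-05). At 3 days their log2 fold changes were 1.99 and 1.41 (limma adjusted p = 0.0117 and 0.0833). Neither passed the 0.01 used for calls, although in both genes every 3-day liver was above every control. The induced pathway was thus read at its targets, called against control at 7 days only, and not at Yap1 itself. The paper states that YAP level was already maximal at the earlier of these time points. Why the Yap1 reads showed no rise was not tested.

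In control livers Rb1 stood highest of the 10 genes at 8.32 ± 2.02 eRPKM (SD, n = 4), followed by Cdkn2c at 6.83 ± 2.51, E2f8 at 6.38 ± 3.74 and E2f3 at 4.87 ± 0.793. Rb1, Cdkn2c and E2f8 each overlapped in range with the next gene down, while Rb1 and E2f3 did not overlap. E2f1 came next at 2.19 ± 0.398 and was apart from both neighbours, and the others averaged between 0.564 (Mybl2) and 1.35 (Rbl1). After 7 days the order was led by E2f1 at 28.7 ± 1.23 eRPKM (n = 3) and Cdkn2c at 23.7 ± 3.77, each apart from the next gene down. Rb1 followed at 10.1 ± 0.575, and Mybl2 was still the lowest at 2.08 ± 0.466, overlapping E2f7 at 2.18 ± 0.355.

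**Figure D1:**
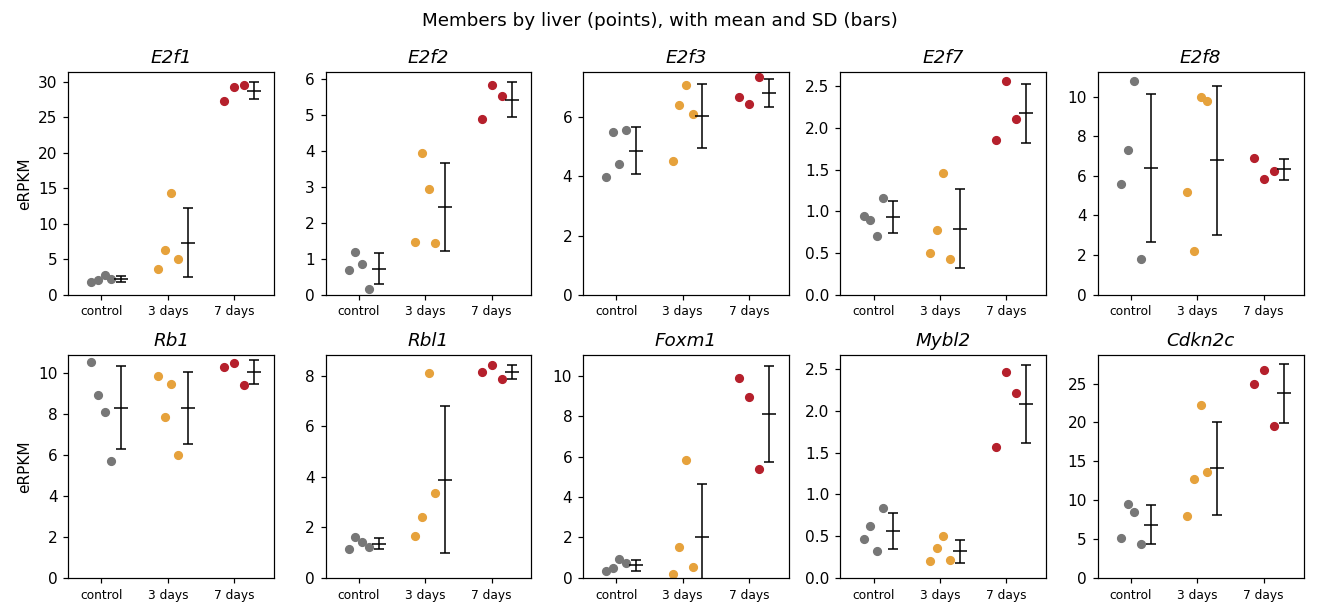
Level of each gene in eRPKM (vertical axis, linear, from 0) by group, with 1 point per liver and the mean and SD beside the points (4 controls, 4 livers at 3 days, 3 at 7 days). E2f1 at 7 days sits between 27.3 and 29.6 with no control above 2.72, whereas the E2f8 and Rb1 points of the groups overlap. The SD bar of Foxm1 at 3 days extends below 0 and is clipped at the axis.

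At 7 days against control, 6 of the 10 genes were called higher (limma on log2(eRPKM + 0.5), adjusted p under 0.01 over 14244 tested genes and a log2 fold change beyond 0.5) and 0 lower. They were E2f1, E2f2, Rbl1, Foxm1, Mybl2 and Cdkn2c. Of all tested genes, 18.0% were called higher and 5.77% lower in the same comparison. In 8 of the 10, every 7-day liver lay above every control, which held for 36.7% of all tested genes. The median log2 fold change of the 10 was 1.53, beside 0.26 over all tested genes. That overall shift came to 0.03 with median-ratio size factors and to -0.08 after quantile normalization. With log2 depth as a covariate 2 of the 10 were called, and without the 3 libraries with the most genes above 0, which leaves 2 controls and 2 livers at 7 days, 2 were called. In both settings these were E2f1 and E2f2, and over all genes 1099 and 941 were called higher in place of 2561. The log2 fold changes of the 4 genes that lost their call were, with depth, 2.02 (Rbl1), 2.90 (Foxm1), 1.35 (Mybl2) and 1.34 (Cdkn2c), and without the 3 libraries 2.23, 2.58, 1.17 and 1.78.

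Among the activators, E2f1 had the largest log2 fold change of the 10 genes on log2(eRPKM + 0.5), while with limma-voom on the recovered reads Foxm1 had 3.78 and E2f1 3.72. The levels of E2f1 were 1.77, 2.07, 2.72 and 2.21 eRPKM in control livers 1 to 4. The livers at 3 days had 3.63, 6.28, 14.3 and 5.06, and those at 7 days 27.3, 29.3 and 29.6. The 3 groups did not overlap at all, and the 3-day livers lay between the others. The log2 fold change at 7 days was 3.45 (SE 0.34; limma adjusted p = 1.55e-05), and it ranged from 3.17 to 3.72 over 29 settings. At 3 days it was 1.38 (SE 0.32; adjusted p = 0.0894) and did not pass the threshold.

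E2f2, the second activator, was lower throughout. It measured 0.683, 1.19, 0.851 and 0.164 eRPKM in the controls, 1.46, 3.95, 2.95 and 1.45 at 3 days, and 4.89, 5.85 and 5.55 at 7 days. Again the groups were apart, although control liver 4 rested on 1 read. At 7 days its log2 fold change was 2.35 (SE 0.37; limma adjusted p = 0.000354).

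E2f3, the third activator, differed little between the groups. Controls had 3.99, 5.52, 4.41 and 5.56 eRPKM, which compared with 4.53, 6.41, 7.11 and 6.11 at 3 days and with 6.69, 6.46 and 7.37 at 7 days. All 3 livers at 7 days were above all controls, but the log2 fold change of 0.46 (SE 0.21; limma adjusted p = 0.104) did not pass, and after quantile normalization it was -0.20. The log2 ratio of E2f1 to E2f3 within a liver, on log2(eRPKM + 0.5), was -0.995 ± 0.279 (SD, n = 4) in controls and 1.99 ± 0.0906 (n = 3) at 7 days.

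Of the atypical repressors, neither passed the threshold at 7 days. E2f7 had 0.949, 0.896, 0.699 and 1.17 eRPKM in controls, 0.505, 0.772, 1.46 and 0.426 at 3 days, and 1.86, 2.56 and 2.11 at 7 days. The 7-day livers were above every other liver, with a log2 fold change against control of 0.91 (SE 0.29; limma adjusted p = 0.0246). With limma-voom on the recovered reads E2f7 was past the threshold (lowest adjusted p over the settings 0.00606).

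E2f8 was already among the higher genes in controls and spread widely there. Its levels were 5.58, 7.32, 10.8 and 1.80 eRPKM in the controls, 5.16, 2.21, 9.99 and 9.78 at 3 days, and 6.91, 5.84 and 6.26 at 7 days. The 7-day livers lay inside the range of the controls, with a log2 fold change of 0.20 (95% interval -0.94 to 1.35; limma adjusted p = 0.788). Among controls and 3-day livers, the 4 with more Xist than Ddx3y had 7.32 to 10.8 eRPKM and the 4 others 1.80 to 5.58, with no overlap. No other gene of the 10 separated in this way, and 3.67% of all tested genes had every female liver above every male liver. The 7-day livers, all female by the same reads, stood at 5.84 to 6.91, below each of those 4 female livers. In female livers alone the log2 fold change of E2f8 at 7 days was -0.46 and did not pass. The exons of E2f8 share 274 bases with Gm2788 on the other strand, and the alignment carried no strand information.

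The pocket proteins also differed from each other. Rbl1, which encodes p107, measured 1.14, 1.62, 1.42 and 1.23 eRPKM in controls, 1.67, 2.40, 8.13 and 3.35 at 3 days, and 8.17, 8.46 and 7.89 at 7 days. Every induced liver was above every control, and the 3-day liver 3 was within the range of the 7-day livers. The log2 fold change at 7 days was 2.23 (SE 0.38; limma adjusted p = 0.000583).

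Rb1, which encodes Rb itself, had 10.6, 8.92, 8.10 and 5.70 eRPKM in controls, 9.84, 7.86, 9.46 and 5.98 at 3 days, and 10.3, 10.5 and 9.40 at 7 days. The groups overlapped, and the log2 fold change at 7 days was 0.29 (95% interval -0.21 to 0.79; limma adjusted p = 0.349). It was -0.26 after quantile normalization. Of its 6015 exon bases Rb1 shares 408 (6.78%) with Lpar6 and 488 (8.11%) with Rcbtb2, both on the other strand. Lpar6 averaged 27.9 eRPKM in controls and 36.1 at 7 days, and Rcbtb2 10.7 and 13.1, all above the Rb1 means. Whether reads of these 2 genes entered the Rb1 values was not tested.

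Cdkn2c, the INK4 inhibitor, was called higher as well. It had 5.09, 9.5, 8.42 and 4.32 eRPKM in controls, 7.94, 12.7, 22.3 and 13.6 at 3 days, and 25.0, 26.7 and 19.5 at 7 days. The 3-day livers overlapped both other groups, while the 7-day livers were above all controls. The log2 fold change at 7 days was 1.78 (SE 0.33; limma adjusted p = 0.00107).

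The factors of G2 and mitosis started from the lowest levels. Foxm1 had 0.342, 0.485, 0.923 and 0.711 eRPKM in controls, 0.167, 1.53, 5.86 and 0.543 at 3 days, and 9.92, 8.97 and 5.40 at 7 days. Controls rested on 4 to 12 reads, the 3-day livers on 2 to 97 and the 7-day livers on 129 to 240. The log2 fold change at 7 days was 2.93 (SE 0.59; limma adjusted p = 0.00195), with the widest error of the 6 called genes. The call was lost without the 7-day liver 1 (adjusted p = 0.0111) or liver 2 (0.0107), with no filter on low values (0.0125) and in female livers only (0.0121). Its exons share 144 bases with 4933413G19Rik.

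Mybl2 had 0.471, 0.619, 0.327 and 0.838 eRPKM in controls, 0.197, 0.361, 0.498 and 0.214 at 3 days, and 1.57, 2.47 and 2.22 at 7 days. The 7-day livers were above all others, while the 3-day livers lay within or below the range of the controls. Only 3 to 13 reads per control and 2 to 7 per 3-day liver stood behind these values. Against control, the 7-day log2 fold change was 1.29 (SE 0.26; limma adjusted p = 0.00210), which after quantile normalization was 0.82 and not past the threshold. The call was also lost without the 7-day liver 2 (adjusted p = 0.0119) or liver 3 (0.0139) and in female livers only (0.0131).

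**Figure D2:**
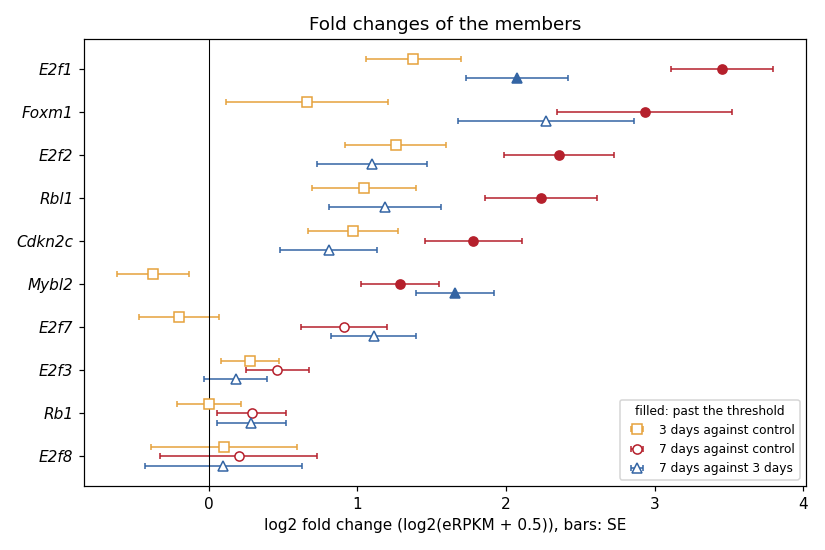
Log2 fold change of each gene (horizontal axis, from log2(eRPKM + 0.5), bars are SE) for 3 days against control (squares), 7 days against control (circles) and 7 days against 3 days (triangles), with filled symbols past the threshold. At 7 days against control 6 genes are filled, from 1.29 (Mybl2) to 3.45 (E2f1), and at 3 days none is.

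Pairs of genes within a liver were compared by log2 ratios, which ask whether 2 genes moved by different amounts. From control to 7 days the ratio of E2f8 to E2f1 differed by -3.25, that of E2f1 to E2f3 by 2.99, that of Rbl1 to Rb1 by 1.94, that of Mybl2 to Foxm1 by -1.65 and that of Cdkn2c to Rb1 by 1.49. For all 5 ratios the control and 7-day livers did not overlap. Apart from Mybl2 and Foxm1, each pair set a gene called at 7 days against one not called. These ratios thus largely restate the results of the single genes. The share of other gene pairs without overlap was not computed. Each of the 5 ratios gave p = 0.0571 in an exact two-sided permutation test, taken as double the smaller one-sided p. The Benjamini-Hochberg value over the 5 was 0.0571 too. This is the smallest p that 4 livers against 3 allow with this test, so 0.05 could not be reached.

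At 3 days against control, 0 of the 10 genes were called in either direction by limma, and 4 had an unadjusted p under 0.05, as had 12.1% of all tested genes. Of all tested genes 0.0421% were called higher. E2f1, E2f2 and Rbl1 had every 3-day liver above every control, which held for 3.38% of all tested genes. The median log2 fold change of the 10 was 0.47, beside 0.02 over all tested genes. For Rbl1 it was 1.04 (adjusted p = 0.243), for Cdkn2c 0.97 (0.204), for Foxm1 0.66 (0.656) and for Mybl2 -0.37 (0.564). The controls had 7 days of doxycycline and these livers 3 days. YAP induction and the length of doxycycline feeding therefore cannot be told apart in this comparison.

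The 3-day livers differed strongly among themselves. Over the 6 genes called at 7 days, the median log2 difference from the control mean was 0.25 in liver 1, 0.90 in liver 2, 1.96 in liver 3 and 0.88 in liver 4. Liver 3 reached the lowest 7-day liver in 3 of the 6 genes, and the others in 0. In Foxm1 the 3-day livers ran from 0.167 to 5.86 eRPKM, from below all controls to above the lowest 7-day liver. The lowest of these values, in liver 1, rested on 2 reads. In Mybl2 liver 3 stood at 0.498 on 7 reads, the highest of the 3-day livers but within the range of the controls. In E2f2 liver 2 (3.95) was above liver 3 (2.95), and all 3-day livers were below the 7-day livers. The 3-day livers 1 and 4 carried the label suffix MF, as did 7-day liver 2 and no control, and its meaning is not given. Cyr61 was 26.8 and 27.5 eRPKM in 3-day livers 1 and 4 and 48.3 and 53.4 in livers 2 and 3. Xist was 1.58, 0.298, 131 and 92.2 eRPKM in livers 1 to 4. With the suffix as a covariate the 3-day log2 fold change of E2f1 was 1.69 (limma adjusted p = 0.0375), not past the threshold. The part of these differences in the spread was not tested.

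**Figure D3:**
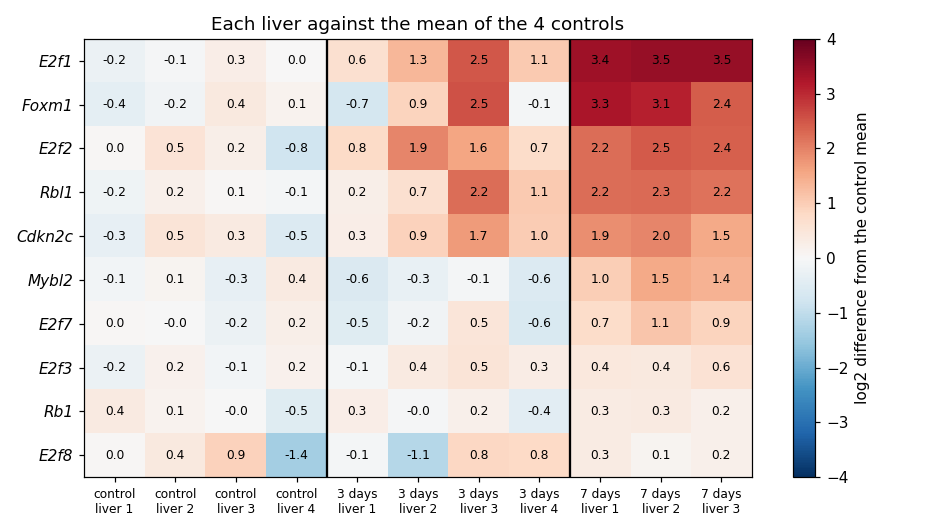
Log2 difference of each liver (columns) from the mean of the 4 controls for each gene (rows), on a scale from -4 (blue) to 4 (red). The 7-day livers are alike, whereas among the 3-day livers number 3 has the darkest cells in E2f1, Foxm1, Rbl1 and Cdkn2c.

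The step from 3 to 7 days was tested in the same fit, and 2 of the 10 genes were called higher, beside 14.0% of all tested genes. None was called lower, beside 5.31% of all tested genes (19.3% in either direction). E2f1 rose by a further log2 fold change of 2.08 (SE 0.34; limma adjusted p = 0.000667) and Mybl2 by 1.66 (SE 0.26; adjusted p = 0.000487). In 4 genes (E2f1, E2f2, E2f7 and Mybl2) every 7-day liver was above every 3-day liver, which held for 31.3% of all tested genes. Foxm1 had 2.27 (adjusted p = 0.0107), E2f7 1.11 (0.0105), Rbl1 1.19 (0.0271), E2f2 1.10 (0.0349) and Cdkn2c 0.81 (0.0707). Without the 3-day liver 3, 5 of the 10 genes were called, and without the 3 libraries with the most genes above 0, 0 were called. With limma-voom on the recovered reads 6 were called. The length of YAP induction and that of doxycycline feeding differed together in this step and cannot be told apart.

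The surrounding pathway was described by 7 lists with 77 genes, chosen with earlier results of these data known, of which 74 were tested. At 7 days 52 of the 74 were called higher and 0 lower. At 3 days 0 were called. From 3 to 7 days 11 (14.9%) were called higher, close to the 14.0% of all tested genes, and for the shorter lists at 7 days the share of all tested genes called higher, 18.0%, is the background.

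Of the remaining E2F and DP genes, 2 of 5 were called higher at 7 days. E2f4, which mostly acts in repressor complexes, had 10.6 ± 1.35 eRPKM (SD, n = 4) in controls and 29.5 ± 4.52 (n = 3) at 7 days, a log2 fold change of 1.44 (limma adjusted p = 0.000161). Tfdp1, the DP partner that E2F1 needs to bind DNA, had 1.13 (adjusted p = 0.000208).

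Of the other pocket protein and MuvB genes 1 of 7 was called. This was Mybl1, which encodes A-Myb, at 0.682 ± 0.451 eRPKM in controls (n = 4), 2.89 ± 1.95 at 3 days (n = 4) and 17.4 ± 1.46 at 7 days (n = 3). Its log2 fold change of 3.98 (limma adjusted p = 1.37e-05) was above that of each of the 10 genes, and its level at 7 days lay above the 2.08 eRPKM of Mybl2.

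Among the other CDK inhibitors, 3 of the 4 tested were called higher. Cdkn1a, which encodes p21, had 1.29 ± 0.546 eRPKM in controls (n = 4) and 28.8 ± 2.34 at 7 days (n = 3), a log2 fold change of 4.07 (limma adjusted p = 3.14e-05). Cdkn2b (p15) had 1.24 and Cdkn1b (p27) 0.71. Genes that hold the cycle back and genes that drive it were therefore higher in the same livers.

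Of the cyclin D and E kinase genes that act on Rb, 3 of 8 were called, namely Cdk6 (1.37), Ccne2 (1.15) and Ccnd3 (1.13). Of the genes for degradation of these factors, 2 of 5 were called, Fbxo5 (log2 fold change 1.83), which encodes an inhibitor of the anaphase-promoting complex, and Skp2 (1.34).

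Of 22 G1/S genes known as E2F targets, 18 were called higher at 7 days, with a median log2 fold change of 2.51. Uhrf1, a partner of DNA methylation, had 3.94, the replicative helicase genes Mcm5 and Mcm2 had 3.70 and 3.57, and Rrm2, a subunit of ribonucleotide reductase, had 3.35. All 23 G2/M genes known as Foxm1 and B-Myb targets were called higher at 7 days, with a median of 2.87. They were led by the mitotic kinase genes Aurkb (4.28) and Ttk (3.85), by Cdc20 (3.82), the activator of the anaphase-promoting complex, and by Ccnb1 (3.79), which encodes cyclin B1. Without the 3 libraries with the most genes above 0, 10 of the pathway genes were called at 7 days, and with log2 depth as a covariate 24.

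**Figure D4:**
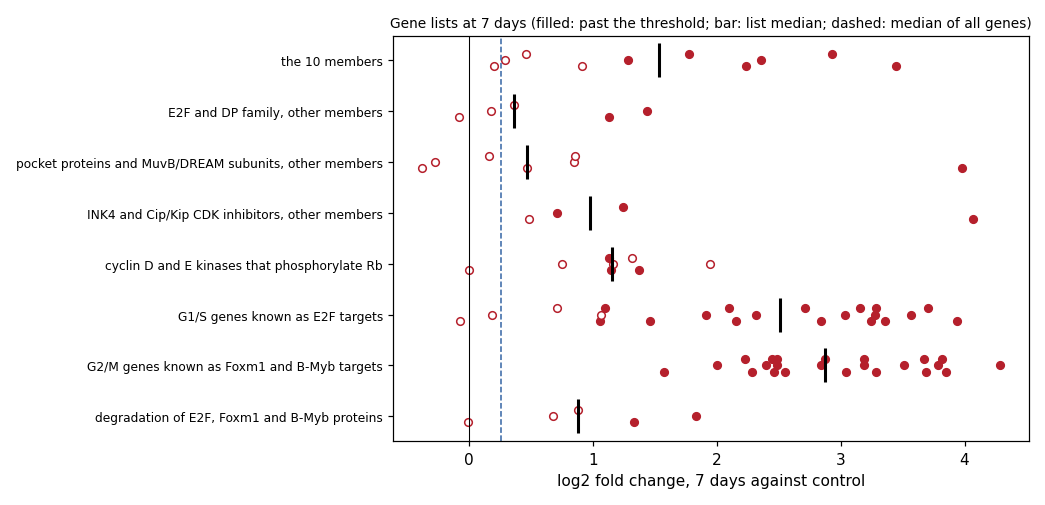
Log2 fold change at 7 days against control (horizontal axis) of the 10 genes and of each tested gene of the 7 pathway lists, filled where past the threshold, with the list median (bar) and the median of all tested genes (dashed line, 0.26). The G1/S and G2/M lists have medians of 2.51 and 2.87, and the other 5 lists lie between 0.36 and 1.15.

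The genes most like 4 of the factors were found by Pearson's r of log2(eRPKM + 0.5) over the 11 livers, which share their group, depth and sex structure, so these values are descriptions. For E2f1 they were Pkmyt1, Stil, Specc1, Nrg1 and Cdt1 (r of 0.983 to 0.985). For Foxm1 they included Espl1, Ncaph, Kif18b and Incenp (0.977 to 0.989). For Mybl2 they were Fcgbp, Aldh3b1, Frmpd1, Ptger1 and Ttll10 (0.967 to 0.973). For E2f8 they were Nipal1, Nmd3, Lepr, Iqcd and Clca3a1 (0.899 to 0.957). Of the genes named here for the 4 factors, only Cdt1 is in the cell cycle lists used above. Among the 10 genes themselves E2f1 was closest to Rbl1 (r = 0.970) and Foxm1 (0.937). With the group means removed these were 0.911 and 0.947. E2f1 and E2f8 had 0.190 and, with the group means removed, 0.278.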

How the data were processed

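Bulk RNA-seq of 11 whole livers (total RNA, TruSeq RNA v2) was analysed from the table the authors deposited. Per the study and its processing notes, read pairs were aligned to mm9 with TopHat2 2.0.8 without strand information and counted on genes (featureCounts 1.4.5-p1 is named). The deposited values are eRPKM, a kind of RPKM scaled by the authors to each library's reads. Its 3 columns of the authors' own comparison (mean signal, log2 fold change and adjusted p for 7 days against WT) were not used. Groups came from the sample titles.

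Reads behind the eRPKM were recovered from their steps (177553 of 177553 values above 0 were whole within 0.1 of a read). Genes reaching 0.5 eRPKM in 3 or more libraries (14244 of 20893, with all 10 members) were tested with limma 3.58.1 (R 4.3.3; eBayes with trend) on log2(eRPKM + 0.5), which understates changes of low genes, with the 3 groups in one fit. The study's thresholds were used for calls, an adjusted p (Benjamini-Hochberg) below 0.01 with a log2 fold change beyond 0.5 in size. The labels do not say that the samples of a group were separate animals, so p-values measure the spread between these samples. Both steps were tested on simulated data. The permutation p is that of scipy 1.17.1, double the smaller one-sided p. The absolute difference of the means was also tried as its statistic, after the values had been seen. It gives 0.0286 for 4 of the 5 ratios (exact), below 0.05, and was not used. Python 3.11.15, numpy 2.4.6, pandas 2.3.3 and matplotlib 3.10.9 were used.

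The members, lists and tests were chosen with earlier results of these data known. Named were all 10 members, up to 4 genes per list with the largest absolute log2 fold change at 7 days among called genes, Yap1, Cyr61 and Ctgf, and the 5 genes most correlated with each of E2f1, E2f8, Foxm1 and Mybl2, of which 1 is not reported here. Markers of 9 cell types were measured. Their summed levels outside the macrophage and hepatocyte lists, as ranges in controls, at 3 days and at 7 days, were 37.5 to 49.0, 40.5 to 84.5 and 61.5 to 111 eRPKM for cholangiocyte, 97.6 to 170, 113 to 208 and 134 to 171 for endothelial, 8.30 to 18.1, 6.00 to 14.5 and 25.8 to 39.2 for neutrophil, 44.4 to 108, 32.3 to 70.5 and 26.8 to 32.6 for erythroid, and 47.3 to 94.6, 40.2 to 80.4 and 36.7 to 43.0 for stellate markers. T cell and B cell markers summed to at most 5.62 and 5.27 in any liver. Promoter windows are from RefSeq (GRCm38.p6), and exon overlaps from GENCODE M1 on mm9. Besides the E2F words, the CHR words TTTGAA and also TTCGAA were searched (in 17.1% of all windows), as were the box CCAAT (33.9%) and the TEAD word GGAATG (12.6%). A word for CHR stood in windows of E2f2, E2f3 and E2f8, the CCAAT box in those of E2f2, E2f3, E2f7 and E2f8, and the TEAD word in that of Rbl1. In E2f2 the word for CHR stood only in window 2, while CCAAT boxes stood in both windows. The start of that window 2 lay 8388 bases inside the gene as GENCODE M1 places it on mm9. Alternatives were pseudocounts of 1 and 0.1, other filters, scalings and limma settings, limma-voom on recovered reads, a replicate block, covariates (label suffix MF, Xist, depth), a looser adjusted p of 0.05 regardless of fold and leaving out each liver. Female libraries only, and leaving out the 3 libraries with the most genes above 0, were added after the data were seen.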

Additional observations from a re-analysis of the deposited data

Results flagged for a closer look

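E2f1 and Mybl2 differed between the induced time points by a test of the difference itself. The log2 fold change of 7 days against 3 days was 2.08 for E2f1 and 1.66 for Mybl2, and in both genes each of the 3 livers at 7 days was above each of the 4 at 3 days. For E2f1 it ranged from 1.68 to 2.44 over the alternatives and for Mybl2 from 1.08 to 2.61, with highest adjusted p of 0.0132 and 0.0113 (limma), so both calls were lost in some settings. In the same comparison 14.0% of all tested genes were called higher, and in 31.3% every 7-day liver was above every 3-day liver.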

How the results depend on the processing

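No result turned its direction past the threshold. Single genes kept their side of the threshold in 799 comparisons with an alternative, lost it in 19 and gained it in 19. At 7 days against control, 6 members were called, and 2 with log2 depth as a covariate or without the 3 libraries with the most genes above 0. Of 52 pathway genes higher, those settings left 24 and 10, and quantile normalization called 2 lower. At 3 days against control pathway genes called higher were 1 with log2 Xist as a covariate and 4 with the looser threshold of 0.05 whatever the fold. For 7 days against 3 days, 2 members were called in the fit reported, 4 with a pseudocount of 1, 1 with a mean of at least 1 eRPKM, 6 with limma-voom on recovered reads, 6 at the looser threshold, 1 in female libraries only and 0 without the 3 libraries (limma, where 7 of the 10 had an unadjusted p under 0.05 in the fit reported, as had 46.2% of all tested genes). Pathway genes called higher in that comparison were 11, against 17 with a pseudocount of 1, 7 with size factors, 6 with quantile normalization, 7 with the 2 compared groups only, 17 with the label suffix MF, 6 with Xist, 4 with depth, 26 with limma-voom, 34 at the looser threshold, 3 in female libraries and 3 without the 3 libraries. Size factors, quantile normalization and the looser threshold each called 1 lower. Leaving out each liver in turn gave 0 to 7 pathway genes at 3 days (7 without the 3-day liver 1), 4 to 6 members and 37 to 56 pathway genes at 7 days, and 2 to 5 members and 3 to 31 pathway genes for 7 against 3 days (5 and 31 without the 3-day liver 3, and 3 without the 7-day liver 1). The cause was not tested.

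Replicate numbers were not used as pairs in the fit reported. Same-numbered livers of the 3-day and control groups had correlations of their deviations from -0.22 to 0.27. The highest correlation with another number was 0.206 to 0.238. In replicate 3 the same-numbered value was the higher one (0.269 against 0.238), and in the other replicates it was the lower. A single value is here set against the highest of several, which favours the other numbers. At 7 days against control the same-numbered value was again higher in replicate 3 (0.0504 against 0.0412) and lower in the others. For 7 against 3 days it was lower in each replicate. Whether livers of the same number shared a batch was not tested. With a replicate block 6 members were called at 7 days, and 7 pathway genes in place of 11 for 7 against 3 days. Over all genes the block called 2032 higher and 688 lower at 7 days, against 2561 and 822.

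Depth limits the low genes most. Mybl2 rested on 2 to 13 reads in controls and 3-day livers, and the size of change that such reads can show was not computed. Intervals on reads would cover counting error only.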
